A study of Mus musculus with 18 samples.

Results

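Irg1 and Niacr1 are 2 of the 22049 genes counted here in single cells of mouse lung, spleen and an implanted biomaterial scaffold, with and without a mammary tumour in the animal. The genes were taken by name, as the rows Irg1 and Niacr1 of the 18 count tables. They were chosen by earlier results of the same data, as leading genes of a cell cluster found mostly in scaffold. Their levels by tissue and their detection in the same cells are therefore given below as a description, without a test. The contrast of tumour-bearing with healthy mice within a tissue did not choose them and was tested.

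All mice were female and of the BALB/cJ strain. For the tumour, 2000000 cells of 4T1-tdTomato-luc2, a mouse mammary carcinoma line that carries a red fluorescent protein and a luciferase, were injected into the fourth right mammary fat pad, while the healthy mice got no such cells. The scaffold's material and the way it was implanted are not given in the labels. Tissue was taken 7, 14 or 21 days later, from mice labelled as 9, 10 or 11 weeks old, and each tissue gave 1 library per status and day. There are thus 6 groups of 3 libraries, lung, scaffold and spleen each from tumour-bearing and healthy mice, and the 3 libraries of a group are of 3 different days. Single days therefore stand without a test. Animals per library are not stated in the labels, and p-values measure only the spread between these libraries, which may be technical.

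Irg1, now named Acod1, encodes a mitochondrial enzyme that turns cis-aconitate of the citric acid cycle into itaconate. Macrophages and neutrophils are known to induce it strongly through Toll-like receptors and interferons, and itaconate restrains succinate dehydrogenase and activates the stress factors NRF2 and ATF3. Niacr1, now named Hcar2, encodes a receptor on the cell surface that binds nicotinic acid and the ketone body beta-hydroxybutyrate, couples to inhibitory G proteins and is known from fat cells, macrophages and neutrophils. In GENCODE vM21 on GRCm38 Irg1 (ENSMUSG00000022126.6) lies on chromosome 14 from 103046977 to 103056573 on the plus strand, with 5 exons. Niacr1 (ENSMUSG00000045502.6) lies on chromosome 5 from 123863570 to 123865499 on the minus strand, as a single exon. No other annotated gene overlaps either of them. The nearest coding gene on the strand of Niacr1 is its paralog Hcar1, 11237 bp away, which is listed here as Gpr81 and had 8 UMIs in all kept cells.

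The stretch before the start of Irg1 is shown because Irg1 is known as an inducible gene, beside those of Csf1 and Cxcl2, found in the same cells below. All 3 come from RefSeq (GRCm38.p6) and run from 250 to 36 bases before the RefSeq start. Capitals mark matches to 3 short motifs: GGANNTTCC, like a site of the inflammatory factor NF-kB, AAANNGAAA, like a site of interferon regulatory factors, and TTNNGNAA, like a C/EBP site.
Irg1, chr14:103046762-103046976, plus strand: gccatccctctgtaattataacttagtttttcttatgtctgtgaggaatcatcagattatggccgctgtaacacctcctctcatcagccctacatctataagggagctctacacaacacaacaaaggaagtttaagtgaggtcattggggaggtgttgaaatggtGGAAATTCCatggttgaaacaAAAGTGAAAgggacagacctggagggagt
Csf1, chr3:107760505-107760719, minus strand: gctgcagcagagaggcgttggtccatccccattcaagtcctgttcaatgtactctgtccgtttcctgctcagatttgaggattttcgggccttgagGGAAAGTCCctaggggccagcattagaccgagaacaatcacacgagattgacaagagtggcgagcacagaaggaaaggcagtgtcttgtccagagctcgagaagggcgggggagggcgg
Cxcl2, chr5:90903649-90903863, plus strand: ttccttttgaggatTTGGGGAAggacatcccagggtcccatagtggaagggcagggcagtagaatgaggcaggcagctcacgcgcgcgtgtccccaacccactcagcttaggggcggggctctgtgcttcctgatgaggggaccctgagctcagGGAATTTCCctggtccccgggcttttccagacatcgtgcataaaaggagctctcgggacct
The motif letters were chosen after the Irg1 stretch had been read, and both strands were searched. The NF-kB-like letters stood 85 to 77 bases before the start of Irg1, 154 to 146 before Csf1 and 96 to 88 before Cxcl2. The stretches of Csf3r and Il1f9 were searched too. The NF-kB-like letters occurred in that of Csf3r, which overlaps an annotated exon, and not in that of Il1f9. They occur in 2.99% of 32519 stretches of the same length, but the match in Irg1 was known when they were chosen. Letters like sites of AP-1 and STAT factors and a TATA box were searched as well. Of these only a STAT-like match was found, in Il1f9. The interferon-type letters stood 64 to 56 bases before Irg1 and occur in 8.12% of all stretches. The C/EBP-like letters of Cxcl2 occur in 33.7%. Matches of letters are a description and not sites of binding. No stretch was found for Niacr1, which is named only.

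The files held 26397 barcodes and 39064142 UMIs (unique molecular identifiers, counts of captured transcripts). Cells with 200 or more genes and under 20% mitochondrial UMIs were kept, 24536 in all, with 484 to 3387 cells and a median of 383 to 1222 UMIs per cell in a library. Libraries of the same day shared cell barcodes: 279 of 5684 distinct barcodes at day 7, 103 of 8932 at day 14 and 1046 of 7545 at day 21 occurred in more than 1. In healthy spleen of day 21 94.9% of the kept cells carried such a barcode and in healthy lung of day 21 77.2%, against 2.10% to 49.1% in the others. For Irg1 and Niacr1 the tumour contrasts of lung and spleen and the mean levels are also given without day 21 or with each shared barcode given to 1 library. Lung and spleen results of other genes are given with these 2 libraries included. Their alternatives appear only as a count near the end. Levels are given in CPM (a gene's UMIs over all UMIs of the same cells, as a CPM scales them), intervals are exact binomial (Clopper-Pearson) or exact ratio intervals at 95%, and all intervals and floors cover counting error only.

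Irg1 was found in few cells and in large amounts in some of them. It had 3720 UMIs in 1367 cells, 5.57% of all kept cells, and 747 of these cells held a single UMI. In 199 cells there were 5 or more UMIs, up to 46, and 176 of these cells were from scaffold. The 100 cells with most Irg1 held 35.2% of all its UMIs.

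Niacr1 was rarer, with 1005 UMIs in 577 cells (2.35%), of which 427 held 1 UMI. Among the 34 cells with 5 or more UMIs, 33 were from scaffold. Scaffold cells gave 77.2% of the Irg1 and 72.0% of the Niacr1 UMIs. Shared barcodes were carried by 9.80% of the cells with Irg1, 6.41% of those with Niacr1 and 22.8% of all kept cells.

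By tissue, Irg1 stood highest in scaffold and lowest in healthy lung and spleen, with the same order of tissues on each day within a status. In scaffold of tumour-bearing mice its level at days 7, 14 and 21 was 258, 152 and 80.0 CPM, and in healthy scaffold 135, 29.7 and 251 CPM. Tumour-bearing lung gave 241, 100 and 33.6 CPM on the same days, against 7.32, 10.4 and 19.6 in healthy lung. Tumour-bearing spleen gave 75.9, 23.9 and 11.2 CPM, against 8.08, 11.7 and 24.0 in healthy spleen. The level was thus lowest at day 21 in tumour-bearing mice of every tissue, while in healthy mice of every tissue day 21 was the highest, in lung and spleen in the libraries with most shared barcodes. Means over the 3 libraries ran from 163 ± 89.4 CPM (SD, n = 3) in tumour-bearing scaffold through 139 ± 111 in healthy scaffold, 125 ± 106 in tumour-bearing lung, 37.0 ± 34.3 in tumour-bearing spleen and 14.6 ± 8.33 in healthy spleen to 12.5 ± 6.40 in healthy lung. Without day 21 healthy lung had a mean of 8.87 ± 2.20 and healthy spleen 9.87 ± 2.52 CPM (SD, n = 2). Over 3 days no neighbours in this order lie apart by more than the larger of their SDs.

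Niacr1 had its highest values in scaffold as well. In tumour-bearing scaffold it lay at 57.6, 41.9 and 18.3 CPM on days 7, 14 and 21, and in healthy scaffold at 34.3, 9.16 and 71.3. Lung had 34.8, 23.6 and 10.3 CPM with a tumour and 20.9, 21.7 and 1.64 without. Spleen had 14.3, 17.8 and 4.07 CPM with a tumour, and 9.70, 13.3 and 0 without. The 0 was that of healthy spleen at day 21, where 0 of 511 cells had a UMI, which allows a share of up to 0.719%. The groups of all 3 tissues overlapped. The means ran from 39.2 ± 19.8 CPM (SD, n = 3) in tumour-bearing and 38.3 ± 31.3 in healthy scaffold over 22.9 ± 12.3 and 14.8 ± 11.4 in lung to 12.1 ± 7.12 and 7.67 ± 6.89 in spleen, with neighbours again closer than the larger SD. Without day 21 healthy lung lay at 21.3 ± 0.587 and healthy spleen at 11.5 ± 2.56 CPM (SD, n = 2).

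**Figure D1:**
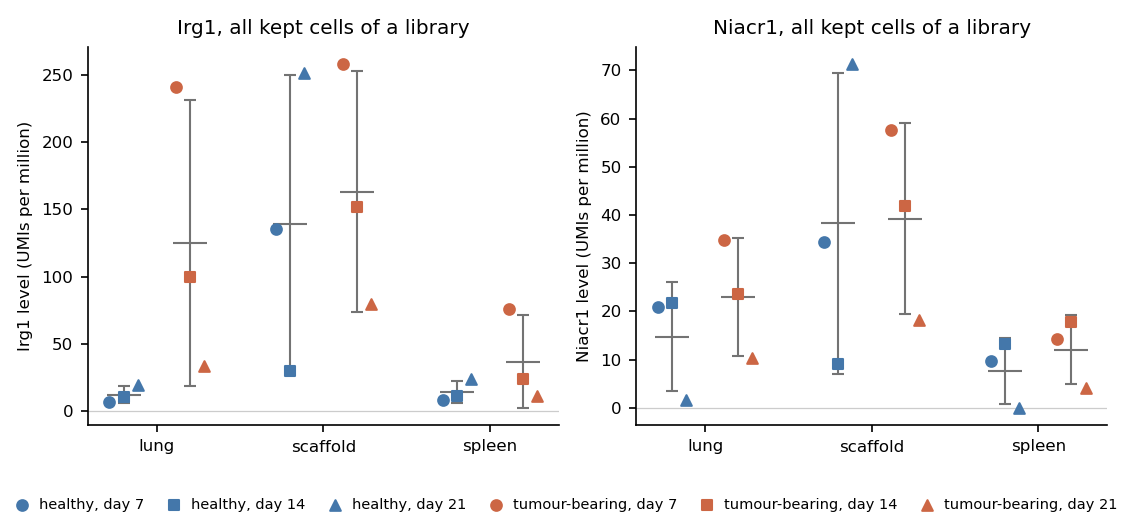
Level of Irg1 (left) and Niacr1 (right) in CPM over all kept cells of each of the 18 libraries, by tissue, status (colour) and day (symbol); the grey line and bar are the mean and SD of 3 libraries. The 3 tumour-bearing lung libraries lie between 33.6 and 241 for Irg1, above the 3 healthy ones at 7.32 to 19.6, while tumour-bearing and healthy libraries overlap in scaffold and spleen for Irg1 and in all 3 tissues for Niacr1.

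The first question was whether a tumour elsewhere in the body went with more of these transcripts in each tissue. Irg1 rose in lung, by log2 3.32 ± 0.874 (SE, 3 against 3 libraries, adjusted p = 0.0334 in edgeR). It was higher on each of 3 days, and the groups did not overlap, with 550 UMIs against 31. In whole-library sums more cells with the transcript and more of it per cell cannot be told apart. The ratio was 33.0 at day 7 (counting interval 15.8 to 82.7), 9.59 at day 14 (5.30 to 19.1) and 1.71 at day 21 (0.948 to 3.38). Niacr1 in lung lay at 1.01 ± 0.651 and did not pass (adjusted p = 0.316 in edgeR), nor without day 21 (0.71, adjusted p = 0.481) or with shared barcodes assigned (0.87, adjusted p = 0.43 in edgeR). Of the 2 genes 1 was called in lung, where 9.07% of the 11158 genes tested were. The Irg1 call was lost without day 7 (log2 2.48, adjusted p = 0.111) and without day 14 (3.34, adjusted p = 0.159 in edgeR). All 12 Irg1-positive cells of healthy lung at day 21 carried shared barcodes. With each shared barcode given to 1 library Irg1 in lung lay at 4.48 (adjusted p = 0.00136), and without day 21 at 4.38 (adjusted p = 0.00268 in edgeR).

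In scaffold neither gene was called, with Irg1 at log2 0.65 ± 0.753 and Niacr1 at 0.38 ± 0.584 (adjusted p = 1 for both in edgeR). Here 0.161% of the genes tested were called, 0 of the 2 genes passed at an unadjusted p under 0.05, and DESeq2 called neither. Both were higher with a tumour at days 7 and 14 and lower at day 21, where the ratio was 0.318 for Irg1 and 0.257 for Niacr1. The direction therefore turned when day 14 was left out, to -0.24 for Irg1 and -0.48 for Niacr1. In spleen Irg1 lay at 1.46 ± 0.895 (adjusted p = 0.42) and Niacr1 at 0.88 ± 0.757 (adjusted p = 0.571 in edgeR). Again 0 of the 2 were called, by DESeq2 too, and 0 had an unadjusted p under 0.05, beside 3.31% of genes called in spleen. Spleen was higher with a tumour at days 7 and 14 for Irg1, by 9.39 and 2.05 times, and lower at day 21 at 0.467 times (0.203 to 1.25), against the healthy library in which 94.9% of cells, and all 4 of its Irg1-positive cells, had shared barcodes. With each shared barcode given to 1 library Irg1 in spleen lay at 2.67 (adjusted p = 0.0776), without day 21 at 2.17 (adjusted p = 0.0835) and without day 7 at 0.54 (adjusted p = 0.795 in edgeR). Niacr1 in spleen lay at 0.70 without day 21 and at 0.73 with shared barcodes assigned.

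Whether the tumour effect itself differed between tissues was tested in the same fit. For Irg1 the effect in lung minus that in scaffold was log2 2.66 ± 1.14 (unadjusted p = 0.0354, adjusted p = 0.496 in edgeR), spleen minus scaffold was 0.81 ± 1.17 and lung minus spleen 1.86 ± 1.26. The values of Niacr1 were 0.63 ± 0.878, 0.50 ± 0.959 and 0.13 ± 1.03, and none of the 6 passed. For lung minus scaffold edgeR called 0% of 11158 genes (1062 at an unadjusted p under 0.05, and 49 in DESeq2), for spleen minus scaffold 0% (846, and 19 in DESeq2) and for lung minus spleen 0.0179% (1117, and 15 in DESeq2). A tumour effect of Irg1 in lung apart from that in the other tissues is therefore not shown in whole libraries.

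**Figure D2:**
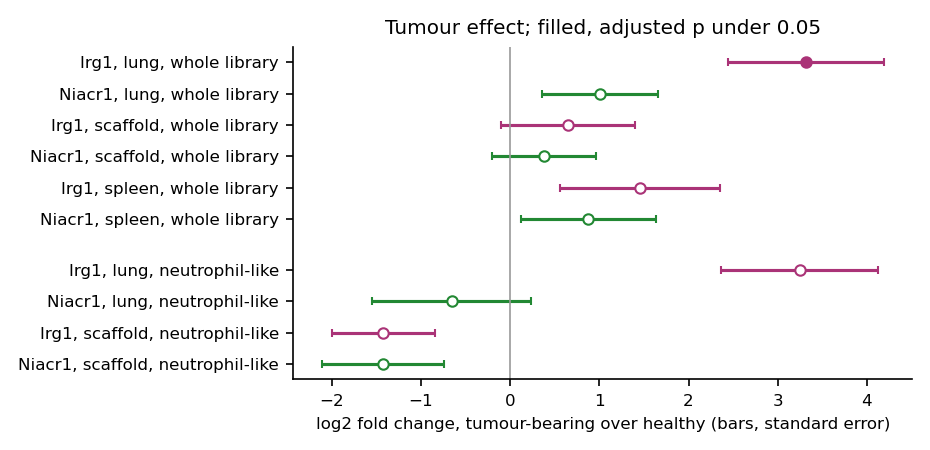
Log2 fold change of tumour-bearing over healthy for Irg1 (purple) and Niacr1 (green) in each tissue, over all cells of a library and within neutrophil-like cells, with standard error bars and filled points where adjusted p is under 0.05. Irg1 in whole lung libraries (3.32) is the only filled point, and within neutrophil-like cells Irg1 lies at 3.25 in lung and at -1.42 in scaffold.

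Counted as the share of cells with at least 1 UMI, Irg1 was found in 14.0%, 9.31% and 3.31% of tumour-bearing lung cells at days 7, 14 and 21, against 0.797%, 0.359% and 1.17% of healthy lung cells. The means were 8.88% ± 5.37 and 0.774% ± 0.404 (SD, n = 3), and the exact 2-sided permutation test gave p = 0.1, the smallest that 3 against 3 libraries allow (0.3 adjusted over 6 tests). This test did not pair the libraries by day, although those of the same tissue and day deviated together. In spleen the shares were 4.19%, 2.83% and 1.53% against 0.826%, 0.511% and 0.783%, also without overlap (exact permutation p = 0.1). Scaffold had 17.0%, 12.8% and 8.29% with a tumour and 8.31%, 3.00% and 11.8% without, and overlapped (exact permutation p = 0.3). With each shared barcode given to 1 library the means were 9.55% against 0.434% in lung and 3.12% against 0.218% in spleen (exact permutation p = 0.1 for both). B cell-like and T cell-like cells, over all days of a group, were taken as background. It is not a clean one: the B cell-like class holds cluster 26, with 49 cells. Irg1 was found in 5 of these, and the neutrophil gene Csf3r in 59.2%. Irg1 was found in 0 of 778 such cells of healthy lung, which allows a share of up to 0.473%, and in 1 of 1262 of healthy spleen (0.0792%, 0.00201 to 0.441). In tumour-bearing mice it was found in 2 of 379 in lung (0.528%) and in 15 of 1728 in spleen (0.868%, 0.487 to 1.43). Median depths of these cells were 594.5 to 829.5 UMIs. The day 14 share of healthy lung thus lies under the limit of its background. The share of tumour-bearing spleen at day 21 lies closest to the upper bound of its own, which pools 3 days. At day 21 alone 0 of 91 B cell-like and 0 of 81 T cell-like cells of that spleen had Irg1.

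Niacr1 was found in 3.99%, 2.62% and 1.24% of tumour-bearing and 2.52%, 2.07% and 0.0972% of healthy lung cells. In scaffold its share was 6.48%, 5.84% and 2.66% with a tumour and 3.33%, 1.26% and 5.11% without, and in spleen 1.58%, 2.05% and 0.579% against 0.826%, 0.511% and 0%. The B and T cell-like background was 0.129% in healthy and 0.528% in tumour-bearing lung, and 0.158% and 0.116% in spleen. Exact permutation p was 0.4 in lung, 0.3 in scaffold and 0.2 in spleen. When every cell was thinned to 400 UMIs, which left out 806 healthy and 857 tumour-bearing lung cells, 785 and 617 of scaffold and 540 and 1199 of spleen, the Irg1 means were 4.86% against 0.385% in lung, 7.68% against 5.74% in scaffold and 1.89% against 0.471% in spleen. For Niacr1 they were 0.950% and 0.582%, 2.89% and 2.30%, and 0.519% and 0.353%. The tumour-bearing mean was the higher in all 6 before and after thinning.

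Neutrophils, short-lived phagocytes recognised here by S100a8, S100a9 and Cxcr2, carried most of both transcripts if cluster 13 below is counted with them. Cells were clustered without Irg1, Niacr1, Csf3r, Il1f9, Csf1 and Cxcl2, and clusters were named from marker lists. The 4 neutrophil-like clusters, 5364 cells, held 78.0% of the Irg1 and 81.4% of the Niacr1 UMIs. Irg1 was found in 17.4% of these cells (95% interval 16.4 to 18.5) at 484 CPM, and Niacr1 in 7.76% (7.05 to 8.50) at 136 CPM. After thinning the shares were 11.7% and 4.66%. Without cluster 13, described next, the other neutrophil-like clusters held 24.6% of the Irg1 and 20.6% of the Niacr1 UMIs.

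A single neutrophil-like cluster, number 13 with 600 cells, held 53.5% of all Irg1 and 60.8% of all Niacr1 UMIs. Irg1 was found in 66.3% of its cells at 4334 CPM and Niacr1 in 38.8% at 1331 CPM. It was 90.3% scaffold, and 0% of its cells had a shared barcode. The neutrophil genes S100a8 and S100a9 were found in 94.7% and 97.2% of its cells and the chemokine receptor Cxcr2 in 56.0%, while Ly6g, the surface antigen of mature mouse neutrophils, was found in 3.00% and C1qa of macrophages in 2.67%. Other neutrophil genes were found in a lower share of its cells than in clusters 2, 5 and 10: Retnlg in 18.2% against 61.0% to 99.6%, Lcn2 in 27.8% against 44.8% to 98.4%, Mmp9 in 11.3% against 17.2% to 58.3% and Cxcr2 in 56.0% against 83.4% to 94.6%. Apoe, a gene of macrophages, was found in 27.8% against 10.8% to 14.4%. The name rests on 5 of 10 neutrophil markers, 0 of them among the 10 leading genes, and in an earlier clustering of these data a cluster with like leading genes was left unnamed. Beside Irg1 it was led by Marcksl1, the chemokines Ccl4 and Ccl3, and Ptgs2, the inducible cyclooxygenase. The other neutrophil-like clusters had lower levels: number 5 had 406 CPM of Irg1 and 87.1 of Niacr1, number 2 had 94.4 and 27.4, and number 10 had 53.4 and 9.57. An unnamed cluster led by Ltf, Camp and Ngp, genes of immature neutrophils, had 20.4 and 13.9 CPM.

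Outside the neutrophil-like cells Irg1 was found mainly in macrophage-like and related cells. Macrophage-like cells had it in 4.75% of cells at 35.3 CPM and held 8.44% of its UMIs, and their median depth of 1779 UMIs was above that of neutrophil-like cells at 823. Among them a cluster of 109 cells led by the interferon-induced genes Ifit2, Rsad2 and Cxcl10 had 210 CPM, in 16.5% of cells (10.1 to 24.8). The unnamed cluster led by Ccl24, Clec4n and Fn1 had 81.9 CPM in 5.99% of cells. In 34 basophil and mast cell-like cells 13 UMIs gave 517 CPM. Monocyte-like cells stood at 18.6 CPM and conventional dendritic cell-like cells at 29.8, and 138 plasmacytoid dendritic cell-like cells had 0, which allows a share of up to 2.64%.

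Niacr1 parted from Irg1 in alveolar macrophage-like cells, a class of lung phagocytes. These 560 cells had 41 Niacr1 UMIs, in 6.96% of cells (5.00 to 9.40), and 2 Irg1 UMIs. Irg1 thus made up 4.65% (0.568 to 15.8) of the UMIs of the pair there, against 78.0% (76.7 to 79.3) in neutrophil-like cells. The Niacr1 level was 50.7 CPM in healthy lung at day 7 and 65.1 at day 14, and 36.2 and 58.9 in tumour-bearing lung, with 12, 19, 6 and 2 UMIs. At day 21 93 such cells of healthy lung had 0, in the library in which 77.2% of cells carried shared barcodes. The erythroid cell-like class had 13 Niacr1 and 4 Irg1 UMIs in 184 cells. It was led by globin genes but also by Vcam1, Spic, Fcna and Itgad, and which of its cells held the UMIs was not tested. Macrophage-like cells, by contrast, had 50 Niacr1 UMIs beside 314 of Irg1, and monocyte-like cells 1 beside 28. In healthy lung the Irg1 share of the pair was 25.9% and 32.4% at days 7 and 14, and in tumour-bearing lung 87.4% and 80.9%. At day 21 it was 92.3% in healthy lung, from 12 Irg1 UMIs and 1 of Niacr1 in the library of shared barcodes, against 76.5% in tumour-bearing lung.

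**Figure D3:**
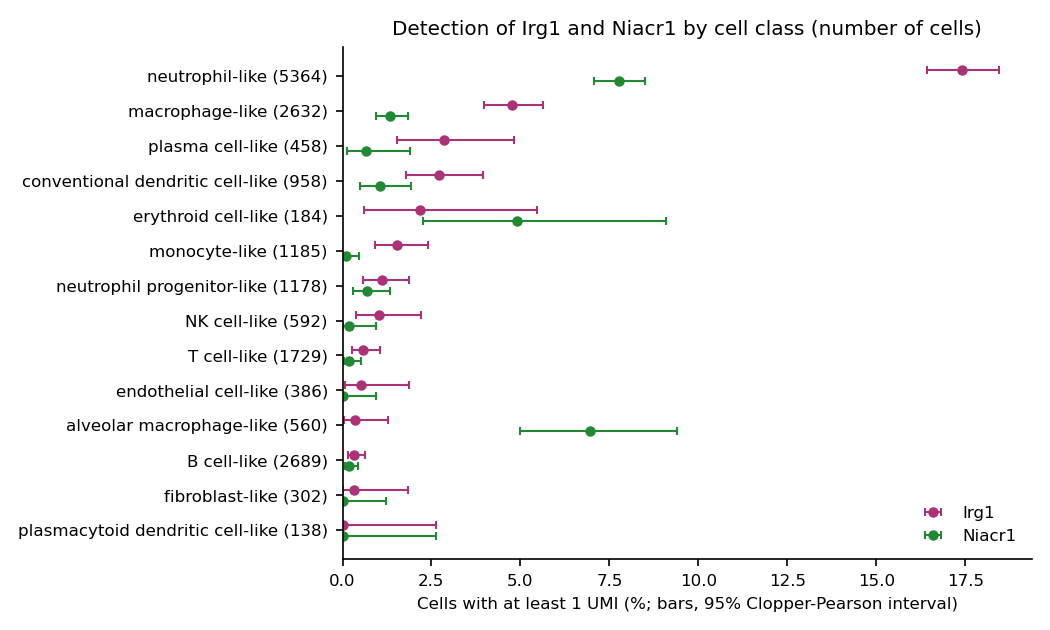
Share of cells with at least 1 UMI of Irg1 (purple) and Niacr1 (green) in each named cell class of 50 or more cells, over all libraries, with exact 95% intervals and the number of cells in brackets. Neutrophil-like cells are highest for both (17.4% and 7.76%), and alveolar macrophage-like cells carry Niacr1 (6.96%) with almost no Irg1 (0.357%).

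The number of neutrophil-like cells differed with the tumour, so the level within them was compared separately from their number. They made up 39.0%, 49.0% and 59.6% of tumour-bearing lung cells at days 7, 14 and 21, and 7.44%, 5.84% and 0.194% of healthy lung cells. In scaffold they were 15.4%, 20.9% and 39.4% against 7.48%, 1.32% and 11.5%, and in spleen 8.78%, 17.3% and 23.1% against 0.826%, 1.62% and 0.196%. These shares leave out the unnamed cluster led by Ltf, Camp and Ngp, which had 985 cells, 73.5% of them from spleen. In that cluster 8 of 10 neutrophil markers were raised. Within the neutrophil-like cells Irg1 in lung stood at 755 CPM (day 7) and 215 CPM (day 14) with a tumour, and at 91.6 and 27.9 CPM without. That is log2 3.25 ± 0.88 over the 2 days, which did not pass (adjusted p = 0.0794 in edgeR), and it rests on 4 and 1 healthy UMIs in 56 and 65 cells. The ratios were 8.24 (3.18 to 30.5) and 7.71 (1.36 to 307). Niacr1 in the same cells went the other way in value, at 86.6 and 48.5 CPM with a tumour and 137 and 112 without (log2 -0.65 ± 0.892, adjusted p = 0.966 in edgeR). Of the 2 genes 0 were called in lung by edgeR, the tool run within this class, beside 0.674% of the 2521 genes tested, and 1, Irg1, had an unadjusted p under 0.05. The finer clustering changed this: there Irg1 in lung passed (3.14, adjusted p = 0.0218), and with scaffold of day 21 left out of the fit as well (3.18, adjusted p = 2.13e-05 in edgeR). The class of the finer clustering was made up differently, as it also held a cluster of 502 cells led by Ltf, Camp and Ngp.

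In scaffold neutrophil-like cells the levels were 4230, 1507 and 234 CPM of Irg1 with a tumour at days 7, 14 and 21, and 4940, 2704 and 5140 CPM without. Niacr1 stood at 1167, 552 and 56.2 CPM against 1371, 588 and 1670 CPM. The fit gave log2 -1.42 ± 0.579 for Irg1 (adjusted p = 0.336) and -1.43 ± 0.687 for Niacr1 (adjusted p = 0.409 in edgeR). At 0.912% of genes called, 0 of the 2 passed, and both had an unadjusted p under 0.05. The values rest on day 21, without which they were -0.26 and -0.03. For Irg1 the lung effect minus the scaffold effect within neutrophil-like cells was 4.67 ± 1.05 (unadjusted p = 9.37e-05, adjusted p = 0.118 in edgeR, with 0% of 2521 genes called and 98 at an unadjusted p under 0.05). It passed at the finer clustering (4.66, adjusted p = 0.0135) and without day 21 (3.44, adjusted p = 0.00197 in edgeR).

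Different clusters made up the scaffold class on day 21. Cluster 13 was 85.9% of healthy scaffold neutrophil-like cells at day 21 (183 cells) and 4.25% of the tumour-bearing ones (27 cells), after 87.3% and 75% at day 7. Clusters 2 and 10 held 362 and 142 of the tumour-bearing neutrophil-like cells of that day. Over all tissues 96.5% and 92.4% of their cells came from tumour-bearing libraries of day 21. Over all neutrophil-like cells the day 21 ratio was 0.0456 for Irg1 and 0.0337 for Niacr1. Within cluster 13 it was 0.355 (0.263 to 0.470) for Irg1 and 0.348 (0.199 to 0.570) for Niacr1. At day 7 the ratios in cluster 13 were 0.932 and 0.931. At day 14 they were 0.589 (0.376 to 0.966) and 1.18 (0.437 to 4.46), with 14 healthy cells. Lung on days 7 and 14 was mainly cluster 5 in both statuses, with 356 and 406 tumour-bearing and 50 and 59 healthy cells.

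Among tumour-bearing libraries the Irg1 level in neutrophil-like cells was lower at each later day in each tissue. Lung went from 755 through 215 to 41.3 CPM, scaffold from 4230 through 1507 to 234, and spleen from 885 through 183 to 62.4. Without cluster 13 the values were 733, 217 and 41.3 in lung, 1090, 447 and 183 in scaffold and 820, 175 and 62.5 in spleen. Niacr1 went from 86.6 through 48.5 to 11.2 CPM in lung, from 1167 through 552 to 56.2 in scaffold and from 127 through 116 to 20.8 in spleen. Over the same days the share of neutrophil-like cells was higher at each later day within each tissue. The clusters in the class changed too: lung went from 93.4% cluster 5 at day 7 to 68.5% cluster 2 and 29.1% cluster 10 at day 21, and spleen from 91.0% cluster 5 to 67.9% cluster 2. Within cluster 5 Irg1 stood at 735, 236 and 25.1 CPM in lung (252, 101 and 1 UMIs) and at 853, 187 and 0 CPM in spleen, where 48 cells were left at day 21. In scaffold it stood at 1084, 461 and 272 CPM in that cluster. With 1 library per tissue and day this order has no test.

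**Figure D4:**
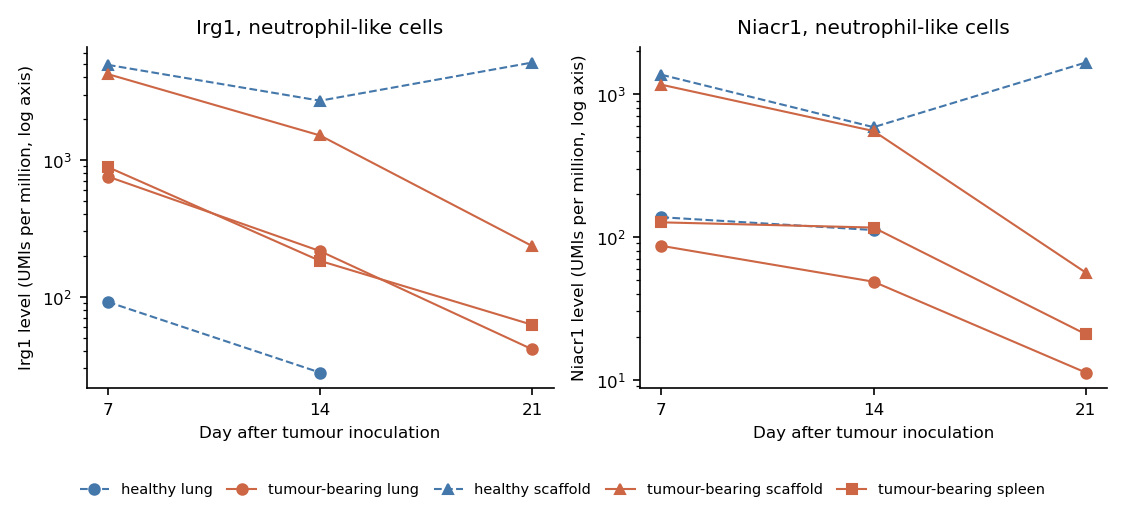
Level of Irg1 (left) and Niacr1 (right) in neutrophil-like cells, in CPM on a log axis, by day, for libraries with 20 or more such cells; solid lines are tumour-bearing and dashed lines healthy, and each point is 1 library. Irg1 in the tumour-bearing libraries goes from 755 to 41.3 in lung, from 4230 to 234 in scaffold and from 885 to 62.4 in spleen between days 7 and 21, while healthy scaffold stands at 5140 at day 21.

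Within the neutrophil-like class of scaffold Irg1 was lower with a tumour on each day. In scaffold cells outside the class it was higher with a tumour at days 7 and 14 and lower at day 21. There Irg1 was at 65.7, 49.8 and 16.2 CPM with a tumour and 24.3, 19.7 and 54.1 CPM without, ratios of 2.71, 2.53 and 0.300. Niacr1 outside this class was low in scaffold throughout, from 2.63 to 7.01 CPM. In lung outside the class Irg1 stood at 6.19, 16.8 and 17.8 CPM with a tumour and 3.29, 9.87 and 19.7 without, so that the difference of whole lung libraries lay in the neutrophil-like cells. At day 7, for example, 279 of the 284 Irg1 UMIs of tumour-bearing lung were in them.

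Detection in the same cell was counted for the pair and for 4 genes named with it: Csf3r, the receptor of the neutrophil growth factor G-CSF, Il1f9, an interleukin 1 family cytokine, Csf1, the growth factor of macrophages, and Cxcl2, a chemokine that attracts neutrophils. Of 835 Irg1-positive scaffold cells 24.7% also had Niacr1 (21.8 to 27.7), against 1.69% of the 7463 other scaffold cells. Of 332 Niacr1-positive cells 62.1% had Irg1 (56.6 to 67.3), against 7.90% of the others. The odds ratio within libraries and within quartiles of depth (Mantel-Haenszel) was 14.8. It was 33.5 in healthy and 9.46 in tumour-bearing scaffold.

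Cxcl2 was found in 68.0% of Irg1-positive and 21.2% of other scaffold cells, Csf3r in 45.6% and 11.5%, Il1f9 in 45.0% and 5.71%, and Csf1 in 33.7% and 5.16%. For Niacr1 the shares were 75.9% and 23.9% with Cxcl2, 54.5% and 13.3% with Csf3r, 60.5% and 7.55% with Il1f9, and 44.3% and 6.52% with Csf1. The odds ratios lay between 5.85 (Irg1 with Csf3r) and 14.8 (Niacr1 with Il1f9). All 4 genes together were found in 11.7% of Irg1-positive cells against 0.415% of others, and in 18.4% of Niacr1-positive cells against 0.854%. None of the 4 was found in 14.7% of Irg1-positive cells and in 69.4% of the others. Median depth was alike, at 988 UMIs in Irg1-positive and 947 in other scaffold cells.

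Much of this went with the cell class. Among 1335 neutrophil-like scaffold cells the odds ratio of Irg1 and Niacr1 was 2.52, with 37.0% against 10.0%. Those of Irg1 with Cxcl2, Csf1 and Il1f9 were 3.41, 2.46 and 2.39, and that with Csf3r was 0.778 (63.2% against 64.2%). Within the class the receptor Csf3r thus had nearly the same share with and without Irg1, while the 3 secreted factors had higher shares with it. Scaffold cells outside the class with Irg1 had a median of 3029 UMIs, against 972 in the others, so their shares cannot be set side by side without depth; there the odds ratio with Niacr1 was 4.66.

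In tumour-bearing lung the odds ratios of Irg1 with these genes had lower values than in scaffold. Niacr1 was found in 5.92% of 338 Irg1-positive cells and 1.73% of others (odds ratio 2.36), and Csf1 in 6.51% and 5.60% (1.36). Csf3r was found in 77.5% and 38.9% (4.27), and Cxcl2 in 45.0% and 28.5% (2.86). Tumour-bearing spleen gave 8.86% and 1.26% for Niacr1 (6.77, against 9.46 in tumour-bearing scaffold), from 14 cells with both. Its odds ratios of Irg1 with Csf3r (6.17) and Cxcl2 (7.49) lay above those of tumour-bearing scaffold (4.76 and 5.85). Those with Il1f9 (4.81) and Csf1 (3.15) lay below (8.73 and 6.31). Among Irg1-positive cells of tumour-bearing mice Csf1 was thus found in 31.9% in scaffold, but in 6.51% in lung and 6.33% in spleen. These co-detections are a description of cells within few libraries.

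**Figure D5:**
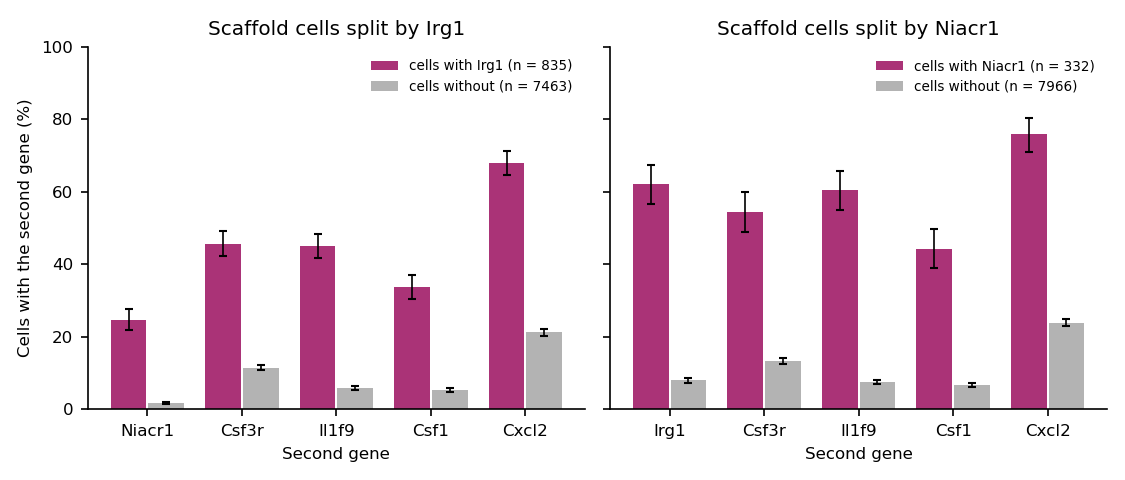
Percent of scaffold cells in which a second gene was found, in cells with (purple) and without (grey) Irg1 on the left and Niacr1 on the right, over 6 libraries, with exact 95% intervals. Each second gene is more frequent in the positive cells, from 24.7% against 1.69% for Niacr1 with Irg1 to 75.9% against 23.9% for Cxcl2 with Niacr1.

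Of the 4874 genes found in at least 5% of Irg1-positive scaffold cells, the 10 with the highest odds ratio included Niacr1 (14.8), the receptor genes Mrgpra2a (19.2) and Mrgpra2b (13.7), Il1f9 (12.5), the immediate early receptor Nr4a3 (11.1), S100a8 (10.3), Clec4e, a C-type lectin receptor (10.2), and S100a9 (9.38). Malat1 stood first (30.9), a nuclear RNA found in 99.6% of Irg1-positive and 92.7% of other cells, but with shared barcodes assigned it lay at 14.5, behind Mrgpra2a at 17.1, and Gm14047 came after Mrgpra2a (16.3). For Niacr1, among 3575 genes, the 10 were Malat1 (27.6), S100a8 (22.3), S100a9 (20.6), Irg1 (14.8), Nr4a3 (14.8), Il1f9 (14.8), Srgn (14.6), Il1b (13.2), Mrgpra2b (12.9) and Mrgpra2a (12.3). Within neutrophil-like cells the values of S100a8 and S100a9 with Irg1 were 1.47 and 1.34, and that of Nr4a3 was 13.4. With Niacr1 those of S100a9 and Il1b lay under 1 there, at 0.706 and 0.536. The others were S100a8 at 1.23, Srgn at 1.28, Mrgpra2b at 1.86, Mrgpra2a at 2.13, Irg1 at 2.52, Il1f9 at 2.54 and Nr4a3 at 4.84, and Malat1 had no finite value.

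Over the 18 libraries, which share tissues, days and depth, the genes ranked most like Irg1 by Spearman correlation of log2 CPM were the interferon-induced Oasl1 (0.899) and Oas2 (0.897), then Chst11 (0.874), Pde7b (0.856), Clec4e and Slc11a1 (0.845 each), Gpr35 (0.843) and Atxn3 (0.833). For Niacr1 they were Arhgef10l (0.864), Pisd (0.854), Plek (0.839), Tgfb1 (0.818), Casp1 (0.81), Etv6 (0.806), Ddx60 (0.804) and Map7d1 (0.80). No gene was on both lists, and Irg1 and Niacr1 correlated with each other at 0.73. Clec4e was near Irg1 by libraries and by cells.

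The 4 genes found with the pair had calls in lung and spleen. Beside them 9.07% of all genes tested were called in lung, 3.31% in spleen and 0.161% in scaffold. Csf3r stood at 762, 842 and 608 CPM at days 7, 14 and 21 in tumour-bearing lung and at 173, 93.0 and 14.7 in healthy lung. Csf1 stood at 29.7, 45.6 and 71.8 CPM against 24.0, 20 and 16.4. Both sets of groups lie apart, more widely for Csf3r. In lung Il1f9 rose by log2 3.97 ± 0.502 (adjusted p = 9.60e-04), Csf3r by 3.64 ± 0.544 (adjusted p = 0.00197) and Cxcl2 by 2.50 ± 0.44 (adjusted p = 0.00471 in edgeR), each of them higher on 3 of 3 days. Csf1 lay at 1.45 ± 0.493 and did not pass (adjusted p = 0.076 in edgeR), but was called by DESeq2. In spleen Il1f9 rose by 3.62 ± 0.557 and Csf3r by 3.03 ± 0.561, and in scaffold 0 of the 4 passed in edgeR (2 at an unadjusted p under 0.05, and 0 in DESeq2).

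The genes that supply, use and dispose of itaconate's precursors did not pass in any tissue. Of 22 listed genes 20 were tested. In lung, scaffold and spleen edgeR called 0 of them, beside 9.07%, 0.161% and 3.31% of all genes tested. DESeq2 called 0 of them too, and 4, 0 and 6 of them had an unadjusted p under 0.05 in edgeR. Their median log2 value was -0.44 in lung beside -0.217 over all genes tested, -0.0537 in scaffold and 0.197 in spleen beside -0.0321. Sdhb and Sdhd, subunits of the succinate dehydrogenase that itaconate inhibits, lay at -0.09 and 0.45 in lung and at 0.22 and 0.81 in spleen. Mdh2, the malate dehydrogenase of mitochondria, lay at 0.52 and 0.91.

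Genes of the signals that induce Irg1 had calls in lung and spleen. Of 18 listed and tested 5 rose in lung, beside 9.07% of all genes called in either direction there, and their median was 0.802: Cd14, the co-receptor of bacterial lipopolysaccharide (log2 2.64 ± 0.338), the adaptor Myd88 (2.45 ± 0.382), its kinase Irak4 (1.60 ± 0.367), Irf1 (1.59 ± 0.332) and the interferon gamma receptor chain Ifngr2 (1.32 ± 0.342), with adjusted p from 0.001 to 0.0312 in edgeR. In spleen 2 rose, beside 3.31% of all genes called, Myd88 (2.24 ± 0.417) and Cd14 (1.95 ± 0.348). In scaffold 0 passed in edgeR, at an unadjusted p under 0.05 or in DESeq2. The NF-kB inhibitor Nfkbia did not pass in any tissue, at 0.59 in lung.

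Among 15 tested genes that NF-kB is known to induce, 4 rose in lung and 2 in spleen, and 1 was called in scaffold. Over all genes tested the shares called were 9.07%, 3.31% and 0.161%. The 4 of lung were Il1b (log2 3.32 ± 0.486), the cytokine Osm (3.48 ± 0.498), the inflammasome sensor Nlrp3 (1.40 ± 0.299) and Nos2. Nos2, the inducible nitric oxide synthase, lay at 6.03 ± 0.868, from 1 to 314 UMIs, and was not called by DESeq2. In spleen Il1b (2.96 ± 0.482) and Osm (4.24 ± 0.593) rose. In scaffold 1 was called, Nos2, with 0 UMIs in the 3 healthy and 72 in the tumour-bearing libraries, of which 1 had 0, at least 20.6-fold higher against a floor of 3 counts over the group (adjusted p = 0.0497 in edgeR, and not called by DESeq2). Ccl3 and Ccl4 did not pass, at 0.04 and 0.37 in lung. Of 12 NRF2 and ATF3 stress genes 1 rose, Nfkbiz in lung (1.71 ± 0.303), a share near the 9.07% of all genes, and Atf3 (0.43) and Nfe2l2, which encodes NRF2 (0.36), did not pass there (scaffold and spleen had 0 calls by edgeR and DESeq2, and 1 gene each at an unadjusted p under 0.05).

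In lung, scaffold and spleen 9.07%, 0.161% and 3.31% of all genes tested were called in either direction. Around the receptor, 5 of 13 tested genes of hydroxycarboxylic acid receptors and signalling rose in lung, with adjusted p 0.00925 to 0.0476 in edgeR. They were the inhibitory G protein subunits Gnai2 (log2 1.70 ± 0.342) and Gnai3 (0.96 ± 0.281), Gnb2 (1.24 ± 0.312), the arrestin Arrb2 (1.68 ± 0.464) and the cyclooxygenase Ptgs1 (1.72 ± 0.502). Scaffold and spleen had 0 in edgeR and in DESeq2 (0 and 7 at an unadjusted p under 0.05). Of 8 tested genes of ketone body and nicotinic acid handling Slc16a3, a lactate transporter, rose in lung (2.58 ± 0.525). Nnmt, which methylates nicotinamide, was called in spleen at -5.45 ± 1.04, but 2 of 3 libraries of each status had 0 UMIs and DESeq2 did not call it. Scaffold had 0 of the 8 by both tools, and 1 at an unadjusted p under 0.05. Slc16a1, the transporter of ketone bodies, lay at -1.50 in lung (adjusted p = 0.0837 in edgeR).

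Neutrophil content moved with all of these calls. The share of all genes tested that was called was 9.07% in lung, 3.31% in spleen and 0.161% in scaffold. Of 11 neutrophil marker genes 10 rose in lung, 8 in spleen and 1 in scaffold, with medians of 4.57, 4.04 and 2.45, and their summed level was 51900 to 179000 CPM in tumour-bearing and 5230 to 6520 CPM in healthy lung. In scaffold the sum was 4970 to 66500 CPM with and 1040 to 5300 without a tumour, and in spleen 22100 to 173000 against 3340 to 8480, and no marker was at 0 over a group. Alveolar macrophage markers fell in lung for 5 of 7 tested genes, with a sum of 263 to 916 CPM against 882 to 2180. Of 16 genes that tissue dissociation is known to induce 8 rose in lung, 1 in spleen and 0 in scaffold (1 at an unadjusted p under 0.05 in edgeR, and 0 in DESeq2), and in lung their sum was 13100 to 15000 CPM against 3420 to 7590. The part of neutrophil content and of dissociation in the changes of the listed genes was not tested. For Irg1 the share of cells and the level within neutrophil-like cells are given separately above.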

How the data were processed

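Drop-seq libraries, which tag transcripts of single cells with UMIs, were counted by the authors and deposited as 1 table of whole-number UMI counts per gene and cell barcode for each of 18 samples. The submitters' processing notes name mm10 and Seurat version 2. The aligner is, like the annotation and cell calling, not given in the sources used here. From the deposited counts, cells were filtered (200 genes, under 20% mitochondrial UMIs), and no doublet caller was run. Kept cells of a library held 292092 to 4291208 UMIs. Counts were summed per library and tested with edgeR 4.0.16 (TMM, filterByExpr, quasi-likelihood, Benjamini-Hochberg adjustment over 11158 genes, threshold 0.05), fitting 1 level per combination of tissue and day, plus the tumour effect by tissue. The day is a block shared by the labels: libraries of the same tissue and day deviated together in 9 of 9 pairs (correlations 0.185 to 0.625). DESeq2 1.42.0 was the alternative. Clusters came from scanpy 1.11.5 (2000 variable genes, 30 components, 15 neighbours, resolution 1). Neutrophil-like sums used 10 libraries with 20 or more such cells. The members, the gene lists and the rule for named genes (the members, the 4 partners, every called gene of the pathway lists and up to 4 others per list by level, the nearest 10 genes by cells and 8 by libraries) were chosen with earlier results of these data known. Genes named beyond the rule were chosen after their values were seen, and some genes that the rule names are not reported here. Gene models are from GENCODE vM21 and promoter stretches from RefSeq.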

Additional observations from a re-analysis of the deposited data

Results flagged for a closer look

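Within neutrophil-like cells the fitted tumour effect on Irg1 had opposite signs in lung (log2 3.25, adjusted p = 0.0794) and scaffold (-1.42, adjusted p = 0.336), and neither passed in edgeR. The effect in lung minus that in scaffold was log2 4.67 ± 1.05 (unadjusted p = 9.37e-05, adjusted p = 0.118 in edgeR). Lung was higher with a tumour at both days that could be compared (755 against 91.6 CPM and 215 against 27.9 CPM), and scaffold was lower at each of 3 days (4230 against 4940, 1507 against 2704 and 234 against 5140 CPM). Without day 21 the scaffold value was -0.26. Within cluster 13 the scaffold ratio at day 7 was 0.932 (0.810 to 1.08). At days 14 and 21 it was 0.589 (0.376 to 0.966) and 0.355 (0.263 to 0.470). The lung side rests on 5 healthy Irg1 UMIs, and at day 21 the scaffold side compares mainly cluster 13 in healthy with clusters 2 and 10 in tumour-bearing libraries.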

How the results depend on the processing

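Of 180 alternatives for the 2 genes' effects 165 kept direction and side of the threshold. Only Irg1 in whole lung libraries was called to begin with. Most of the 165 are therefore effects that had not passed and again did not pass, which shows little about stability. For the odds ratios 20 of 20 moved by less than their spread over libraries, but that spread was wide and large moves could stay within it. Niacr1 was found in 8.96% of Irg1-positive and 2.09% of other cells in tumour-bearing scaffold at day 21. In healthy scaffold at day 21 the shares were 33.6% and 1.28%. The scaffold odds ratio of this pair was 14.8, 16.6 without depth quartiles and 12.4 with shared barcodes assigned. The shares of cells kept their direction in 18 of 18, but their exact permutation test cannot go below p = 0.1 and shows no stability. For 28 called results of other genes 248 of 329 alternatives kept the call, 81 lost it and 0 reversed. Irg1 in lung ranged from 2.48 to 4.38 with a day left out. In scaffold Irg1 ranged from -0.238 (without day 14) to 1.62 and Niacr1 from -0.475 (without day 14) to 1.4. Niacr1 ranged from -0.693 (without day 21) to 2.02 for lung minus scaffold, from -0.7 (without day 21) to 1.48 for spleen minus scaffold, and within neutrophil-like cells from -0.658 (without day 21) to 2.1 for lung minus scaffold. Within those cells Irg1 ranged from 3.18 to 3.32 in lung and from 3.44 to 5.59 for lung minus scaffold, passing at the lower value of each, without day 21. Niacr1 for lung minus spleen reversed with 400 genes per cell (-0.437) and no mitochondrial limit (-0.00737). Without a filter on low counts Irg1 passed in spleen (1.45) and for lung minus scaffold (2.9). At resolution 2 it passed within neutrophil-like cells in lung (3.14) and for lung minus scaffold (4.66). Called genes were 1012 in lung, 18 in scaffold and 369 in spleen, and 42 to 784, 6 to 37 and 0 to 545 with a day left out. With no replicate block (no day term) they were 444, 0 and 72, and Irg1 in lung kept its call at 3.49. DESeq2 called 1432, 40 and 556, and no filter gave 1613, 191 and 909. With 400 genes lung had 556 and scaffold 9, with each tissue alone lung had 573, scaffold 27 and spleen 162, and with shared barcodes assigned scaffold had 38. Lung minus scaffold, spleen minus scaffold and lung minus spleen had 0, 0 and 2, with DESeq2 49, 19 and 15, with no filter 149, 112 and 46, with assigned barcodes 1, 22 and 4, with a day left out 0 to 2, 0 to 1 and 0, and lung minus spleen had 1 with 400 genes, 0 with no mitochondrial limit and 0 with no block. Within neutrophil-like cells lung, scaffold and lung minus scaffold had 17, 23 and 0, at resolution 2 26, 38 and 2, with a day left out 0 to 60, 3 to 11 and 0 to 4, and with no block 6, 0 and 0. Library totals in place of TMM moved the median gene to -0.485 in lung, -0.102 in scaffold and -0.318 in spleen, and the lung calls from 687 higher and 325 lower to 496 and 933. In spleen they moved from 311 and 58 to 193 and 84. Healthy lung and spleen held 31 and 26 Irg1 UMIs, which limits every ratio against them.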

Other observations

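Some cell classes that the report leaves aside carried one or both transcripts at low levels. Among cells led by the epithelial genes Krt19 and Epcam, 94 cells and mostly from scaffold, Irg1 had 9 UMIs in 4.26% of cells. Cells led by Acp5 and Ctsk, genes of osteoclasts, held 30 Irg1 UMIs in 0.755% of 265 cells, so that 2 cells carried them all, and 0 of Niacr1. NK cell-like cells had 23 Irg1 UMIs in 1.01% of 592 cells. Fibroblast-like and endothelial cell-like cells had 1 and 2 Irg1 UMIs and 0 of Niacr1. Neutrophil progenitor-like cells, at a median of 2070 UMIs the deepest named class, had Irg1 at 3.94 and Niacr1 at 2.25 CPM, below the 20.4 and 13.9 CPM of the Ltf and Camp cluster. Macrophage-like cells led by Gpnmb and Mmp12 had Irg1 in 8.93% of cells at 33.9 CPM, but after thinning to 400 UMIs in 1.74%, at a median depth of 4871 UMIs.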
